A study of Mus musculus with 4 samples.

Results

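Gzma, Gzmb, Ifng and Ccl5 encode secreted products of cytotoxic and type 1 effector lymphocytes, and they are described here in regulatory T cells (Tregs), the Foxp3-expressing CD4 T cells that restrain immune responses. The 4 genes were taken by their symbols from the 282 genes of the deposited table. RNA was sequenced from 4 libraries of Tregs of male mice aged 6 to 8 weeks, sorted from spleen and lymph node cells after enrichment of CD4 cells. All cells came from animals of the genotype Foxp3RFP-Cre, RosaYFP, Mll1fl/fl, in which RFP, a red fluorescent protein, and Cre are made in Foxp3-expressing cells, the Rosa locus holds a YFP reporter that Cre switches on, and both alleles of Mll1, the histone methyltransferase gene with the mouse symbol Kmt2a, are floxed. RFP+YFP+ cells carried the label MLL1KO (2 libraries, YFP-positive below) and RFP+YFP- cells the label WT (2 libraries, YFP-negative below). The YFP-negative control cells therefore carried Foxp3RFP-Cre and the floxed alleles too, and were told apart by the lack of YFP. Each group had 1 library under mouse number 1 and 1 under mouse number 2, and nothing in the labels defines a number as an animal or a pool. The p-values therefore speak only for these libraries, not for a spread between animals. They rest on a variance that limma, the linear model used, shares in part between the listed genes. The Kmt2a and Foxp3 genes were not analysed here, so the values check neither the deletion nor the Treg identity of the cells.

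Granzymes are serine proteases that cytotoxic lymphocytes store in granules and release into target cells, where granzyme B cleaves caspases and other substrates and granzyme A acts as a tryptase. Interferon-gamma is the cytokine that defines type 1 immunity, and its transcription in T cells is driven by T-bet and by interleukin-12 and interleukin-18 signals. CCL5 is a chemokine of effector and memory T cells that attracts T cells and myeloid cells. Tregs in lymphoid organs are a mixture of resting cells and of activated effector Tregs, and granzyme B and CCL5 are known products of the activated ones. In bulk RNA, fewer cells that make a product and less RNA per cell cannot be told apart.

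All 4 genes were lower in YFP-positive than in YFP-negative Tregs, in both mouse numbers. Gzma had the largest difference in mean level (8.15-fold), followed by Ifng (5.26-fold), Gzmb (3.70-fold) and Ccl5 (3.62-fold). For each gene the YFP-positive libraries lay below both YFP-negative libraries. The same was true of 196 of the 282 listed genes (69.5%), and the groups did not overlap in any of the other 86 either (100% of listed genes). The authors had deposited genes that passed their own test between these same libraries, so the shared direction of 4 listed genes is a description and not independent evidence.

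RefSeq promoter windows, reaching from 250 bases before to 50 bases after the start site, were available for 3 of the 4 genes (Gzma, Gzmb and Ifng; Ccl5 was not matched). They are shown because these genes were lower together, and capitals mark matches to 2 of 3 short motifs that were searched on both strands. The Runx motif is spelled TGTGGT, which reads as ACCACA on the opposite strand. The AP-1 motif is spelled TGANTCA. The T-box motif is spelled GGTGTGA. No motif matches overlapped. All windows are from RefSeq, build GRCm38.p6, and are written on the strand of the gene.
Gzma, chr13:113100932-113101231, minus strand: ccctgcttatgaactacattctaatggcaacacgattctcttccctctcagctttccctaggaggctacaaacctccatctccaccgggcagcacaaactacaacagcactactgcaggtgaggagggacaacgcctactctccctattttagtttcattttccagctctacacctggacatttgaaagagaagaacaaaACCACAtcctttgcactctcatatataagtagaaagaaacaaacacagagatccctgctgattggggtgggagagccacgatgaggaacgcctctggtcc
Gzmb, chr14:56262285-56262584, minus strand: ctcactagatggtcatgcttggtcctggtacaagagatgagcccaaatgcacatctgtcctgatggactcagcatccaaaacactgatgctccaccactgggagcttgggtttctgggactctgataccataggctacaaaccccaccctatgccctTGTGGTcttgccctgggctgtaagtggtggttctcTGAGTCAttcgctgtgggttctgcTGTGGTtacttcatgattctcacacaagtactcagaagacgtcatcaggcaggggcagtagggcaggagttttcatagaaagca
Ifng, chr10:118440796-118441095, plus strand: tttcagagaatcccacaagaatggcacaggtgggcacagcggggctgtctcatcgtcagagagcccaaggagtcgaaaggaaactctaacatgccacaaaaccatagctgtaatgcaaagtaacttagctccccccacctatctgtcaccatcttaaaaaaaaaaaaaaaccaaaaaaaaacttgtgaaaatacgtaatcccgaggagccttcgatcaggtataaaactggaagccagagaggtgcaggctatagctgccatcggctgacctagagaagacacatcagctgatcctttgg

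The Gzmb window held 2 Runx matches and 1 AP-1 match, the Gzma window held 1 Runx match, and the Ifng window held none of these motifs. A Runx match was present in 16.8% of the 32851 windows that the RefSeq table holds and an AP-1 match in 7.81%. The motif of T-box factors, the family of T-bet, was in none of the 3 windows, and it was in 3.98% of all windows. Such matches are letters in a short window and do not show that a factor binds there. The windows held 5 CpG dinucleotides in Gzma, 2 in Gzmb and 7 in Ifng, whereas the median was 7 over all windows and 10 over the 184 windows of listed genes that were lower in YFP-positive Tregs. The start site used for Gzmb lies 74 bases upstream of the 5' end of the gene as the deposited table gives it, and for Gzma and Ifng both sources give the same base.

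Gzmb (ENSMUSG00000015437, mm10 chromosome 14, 56258838 to 56262260, minus strand) encodes granzyme B. Its normalized count, the read count of the gene divided by a size factor of the library, was 296 in YFP-positive mouse 1 and 406 in YFP-positive mouse 2. In YFP-negative Tregs it was 1545 in mouse 1 and 1051 in mouse 2. Both YFP-negative libraries were above both YFP-positive ones, and the order of the mice was opposite in the 2 populations, with mouse 1 the lower among YFP-positive and the higher among YFP-negative libraries. The group means were 351 ± 77.6 and 1298 ± 349 (SD, n = 2 each). The limma log2 fold change of YFP-positive over YFP-negative was -1.87 ± 0.34 (SE), with adjusted p = 6.43e-06 over all 282 genes. The level was 5.21-fold lower in YFP-positive than in YFP-negative cells in mouse 1 and 2.59-fold lower in mouse 2. In the authors' deposited table its log2 fold change was -1.89, with an adjusted p-value of 1.55e-05.

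Gzma (ENSMUSG00000023132, chromosome 13, 113093825 to 113100981, minus strand) encodes granzyme A. Gzma was detected by few reads in YFP-positive cells and varied widely between mice. Its normalized count was 7.28 in YFP-positive mouse 1 and 37.1 in YFP-positive mouse 2, against 109 in YFP-negative mouse 1 and 253 in YFP-negative mouse 2. Mouse 2 was higher in both populations, by 5.10-fold among YFP-positive and by 2.32-fold among YFP-negative libraries. The group means were 22.2 ± 21.1 and 181 ± 102 (SD, n = 2 each). The limma log2 fold change was -3.23 ± 0.58 (SE), adjusted p = 6.35e-06. limma drew this SE towards the spread of the other listed genes, so it is smaller than the spread of Gzma between its own libraries would give. The adjusted p-value therefore overstates how precisely Gzma was measured. In the authors' deposited table the Gzma log2 fold change was -3.03, with a weaker adjusted p-value of 0.000915. Gzma was 14.9-fold lower in YFP-positive cells in mouse 1 and 6.81-fold lower in mouse 2. The reads behind the values, inferred from the even steps in which the values of a library rise, numbered 7 and 35 in the YFP-positive and 111 and 281 in the YFP-negative libraries. The exact 95% Poisson interval of the 7 reads ran from 2.81 to 14.4 reads, and of the 35 reads from 24.4 to 48.7. These intervals cover counting error only, and they did not overlap. The size of the Gzma difference moved with each library. The limma log2 fold change was -2.13 without YFP-positive mouse 1 and -4.33 without YFP-positive mouse 2. It was -3.84 without YFP-negative mouse 1 and -2.63 without YFP-negative mouse 2. Gzma was lower in YFP-positive cells in each of these fits, a direction that the authors' selection of genes on these libraries had fixed.

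Ifng (ENSMUSG00000055170, chromosome 10, 118441046 to 118445892, plus strand) encodes interferon-gamma. Its normalized count was 81.1 in YFP-positive mouse 1 and 125 in YFP-positive mouse 2. It was 484 and 600 in the YFP-negative libraries of mice 1 and 2. Mouse 2 was the higher in both populations, and the lower YFP-negative library was still 3.87 times the higher YFP-positive one, the widest such gap among the 4 genes. The means were 103 ± 31.1 and 542 ± 81.9 (SD, n = 2 each). The limma log2 fold change was -2.41 ± 0.38 (SE), adjusted p = 8.72e-07. The authors' deposited log2 fold change was -2.40, with an adjusted p-value of 3.18e-07. The difference was closer in size between the mice than for the other 3 genes, at 5.97-fold in mouse 1 and 4.80-fold in mouse 2. In the GENCODE M21 annotation a second gene model, Gm49751, overlaps Ifng on the same strand, and 19.9% of the 50-base stretches of Ifng transcripts also occur in its transcripts. How the authors counted reads in that stretch was not given in the sources used here.

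Ccl5 (ENSMUSG00000035042, chromosome 11, 83525778 to 83530518, minus strand) encodes the chemokine CCL5. Its normalized count was 291 in YFP-positive mouse 1 and 476 in YFP-positive mouse 2, and 1250 and 1525 in the YFP-negative libraries of mice 1 and 2. Mouse 2 was again the higher in both populations. The means were 384 ± 131 and 1388 ± 195 (SD, n = 2 each), with a limma log2 fold change of -1.89 ± 0.34 (SE) and adjusted p = 6.22e-06. The authors' deposited log2 fold change was -1.85, with an adjusted p-value of 2.41e-05. The difference was 4.29-fold in mouse 1 and 3.20-fold in mouse 2. The transcripts of Ccl5, Gzma and Gzmb shared no 50-base stretch with those of other genes.

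**Figure D1:**
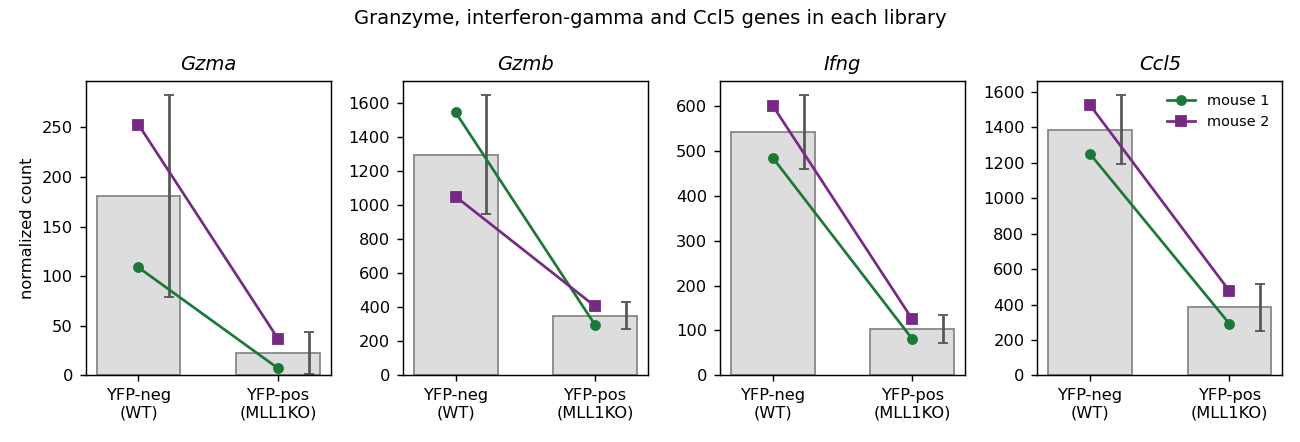
Normalized count of each gene (y axis, linear and from 0, with its own scale for each gene) in YFP-negative and YFP-positive Tregs. Points joined by a line are the libraries of 1 mouse number, bars are means and whiskers are SD (n = 2 each); the YFP-positive points lie below both YFP-negative points for all 4 genes, and the Gzmb lines cross.

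Set among the other lower genes, Gzma and Ifng had larger falls than Gzmb and Ccl5, which lay near the middle. In the authors' deposited table, Gzma ranked 18 by size of its fall among the 196 genes that were lower, Ifng ranked 48, Gzmb 101 and Ccl5 103. Ordered by the p-value of that table, Ifng came first of the 4, at rank 22 of 282, and Gzma last, at rank 96. The median limma log2 fold change was -2.15 over the 4 genes, -1.90 over the 196 lower genes and -1.51 over all 282.

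Each of the 4 genes fell further in mouse 1 than in mouse 2. The gap between the mice in log2 difference was -0.99 for Gzma, -1.01 for Gzmb, -0.31 for Ifng and -0.42 for Ccl5. A larger fall in mouse 1 was also seen in 82.1% of the 196 lower genes, with a median absolute gap of 0.62, so the 4 genes shared this pattern with most of the lower list. Ifng and Ccl5 lay below that median gap, and the 2 granzymes lay above it.

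**Figure D2:**
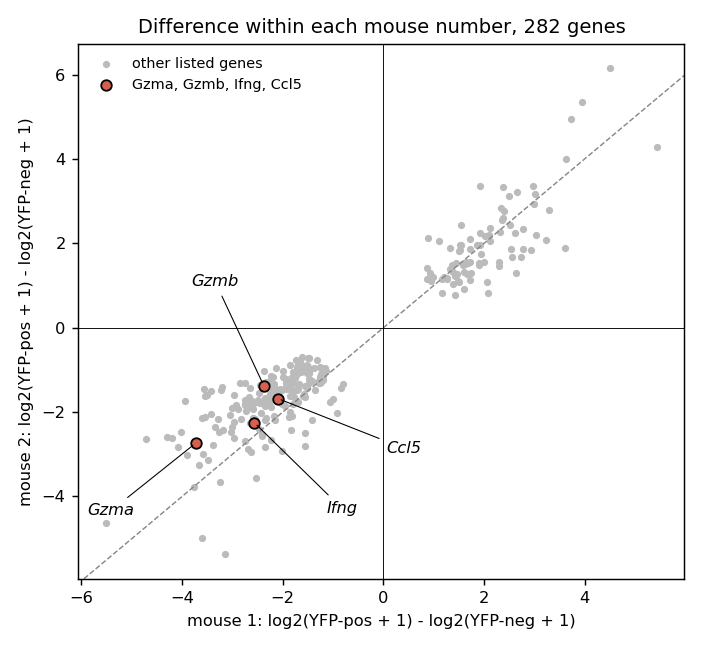
Difference between YFP-positive and YFP-negative Tregs in log2(normalized count + 1) for mouse 1 (x axis) and mouse 2 (y axis), for the 282 listed genes; the dashed line marks equal differences. Gzma, Gzmb, Ifng and Ccl5 (red) lie above the line, where the fall was larger in mouse 1.

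Levels were compared between genes as normalized count per kilobase of the gene length given in the deposited table. Per kilobase the order was Ccl5, Gzmb, Ifng and Gzma in each of the 4 libraries. In YFP-negative Tregs the levels per kilobase were 1445 ± 203 for Ccl5, 904 ± 243 for Gzmb, 419 ± 63.3 for Ifng and 180 ± 101 for Gzma (SD, n = 2 each). In YFP-positive Tregs they were 400 ± 136, 245 ± 54.0, 79.6 ± 24.0 and 22.1 ± 21.0 in the same order. The SD ranges of neighbours in this order were apart in YFP-negative cells, whereas those of Ccl5 and Gzmb overlapped in YFP-positive cells.

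Ratios between genes within a library do not depend on its size factor. Per kilobase, Ccl5 was 4.84 and 5.13 times Ifng in YFP-positive mice 1 and 2, and 3.48 and 3.43 times Ifng in YFP-negative mice 1 and 2. The ratio was thus steady within each population and higher in YFP-positive cells, in which Ifng fell further than Ccl5. The Gzmb to Gzma ratio was 28.5 and 7.67 in YFP-positive mice 1 and 2, and 9.95 and 2.91 in YFP-negative mice 1 and 2. This ratio was 1.52 and 1.40 higher on the log2 scale in YFP-positive cells within mice 1 and 2, but the groups overlapped. The Ccl5 to Gzmb ratio differed in opposite directions in the 2 mice, by 0.28 in mouse 1 and by -0.31 in mouse 2 on the log2 scale. Among the remaining ratios, the populations were apart for Ccl5 to Gzma and for Gzmb to Ifng, and overlapped for Ifng to Gzma. With 2 libraries against 2, an exact permutation test cannot give a p below 0.333, so these ratios were not tested.

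**Figure D3:**
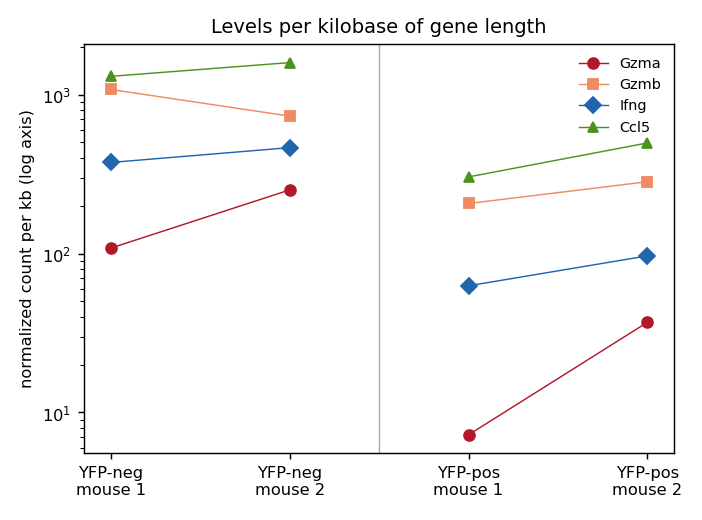
Normalized count per kilobase of gene length (y axis, log scale) of the 4 genes in each library. The order Ccl5, Gzmb, Ifng, Gzma is the same in all 4 libraries, and Gzma spreads most between mice, from 7.24 to 36.9 in YFP-positive cells.

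The listed genes of the same pathways were mostly lower as well. Of 95 other genes on lists of granzymes, granule proteins, interferon-gamma inducers, type 1 products, chemokine ligands, CCL5 receptors and interferon-gamma-induced genes, 13 had a row in the table of selected genes. By limma, 11 of them fell and 2 rose in YFP-positive Tregs, with a median log2 fold change of -1.70. Over all listed genes, 69.5% passed as lower and 30.5% as higher. The table holds only genes that differed, so the other 82 were not analysed here, and nothing follows for their levels.

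Of 10 granzyme genes, Gzma and Gzmb were the 2 with a row, and both fell. Of 20 genes of granule biogenesis and killing, 2 fell and 1 rose. Ctsw, which encodes cathepsin W, a protease of cytotoxic lymphocytes, rose while the granzymes fell. It was counted at 6579 and 5007 in YFP-positive mice 1 and 2, and 1772 and 1721 in YFP-negative mice 1 and 2, a limma log2 fold change of 1.72 ± 0.37 (SE). Both YFP-positive libraries were above both YFP-negative ones. Cst7, which encodes cystatin F, an inhibitor of the cathepsins that activate granzymes, was counted at 6603 ± 445 without YFP and at 2759 ± 1202 with it (SD, n = 2 each), and fell by 1.33 ± 0.39 in log2 terms. The Cst7 call was lost when YFP-positive mouse 1 was left out (log2 fold change -0.87, limma adjusted p = 0.0534). Stx11, which encodes syntaxin-11, a protein of granule release, had a log2 fold change of -1.70 ± 0.37. Its YFP-negative values were far apart, at 4213 in mouse 1 and 1447 in mouse 2, against 813 and 710 in the YFP-positive libraries. Leaving out YFP-negative mouse 1 gave -0.93 and leaving out YFP-negative mouse 2 gave -2.47 for the log2 fold change, and the call was lost when YFP-positive mouse 2 was left out (-1.60, limma adjusted p = 0.0669).

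Of 18 inducers and signal transducers of interferon-gamma, 3 had a row and 3 fell. Tbx21 encodes T-bet, the transcription factor that drives Ifng in T cells. Its normalized count was 74.9 and 76.3 in YFP-positive mice 1 and 2, and 285 and 187 in YFP-negative mice 1 and 2. The log2 fold change was -1.60 ± 0.43 (SE), and the call was lost when YFP-negative mouse 1 was left out (-1.30, limma adjusted p = 0.0809). Il18r1 and Il18rap encode the 2 chains of the interleukin-18 receptor, and their log2 fold changes were -1.26 ± 0.34 and -2.27 ± 0.44. Like Gzma, Il18rap was higher in mouse 2 in both populations, with 46.8 and 133 in YFP-positive mice 1 and 2, and 243 and 607 in YFP-negative mice 1 and 2. The Il18rap call was lost when YFP-negative mouse 2 was left out (-1.61, limma adjusted p = 0.0866), and the log2 fold change ran from -3.01 to -1.53 without each of the other libraries in turn, where it passed. The Il18r1 call was lost when YFP-positive mouse 1 was left out (-0.98, limma adjusted p = 0.0748).

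Of 14 type 1 surface and secreted products, 3 had a row and 3 fell. They were the chemokine receptor genes Cxcr3, Cxcr6 and Ccr2, whose products guide effector T cells into tissues. Cxcr3, which encodes a receptor that T-bet induces, had 804 and 1823 normalized counts in YFP-positive mice 1 and 2 against 5435 and 5954 in YFP-negative mice 1 and 2. Its log2 fold change was -2.23 ± 0.37, with -1.64 without YFP-positive mouse 1 and -2.82 without YFP-positive mouse 2. Cxcr6 fell by 2.34 ± 0.34 and Ccr2 fell by 1.90 ± 0.34 on the log2 scale.

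Of 15 chemokine ligand genes, 3 had a row and 3 fell, namely Ccl5, Ccl1 and Cxcl10. Ccl1, which encodes a ligand of CCR8, was counted at 56.2 and 66.8 in YFP-positive mice 1 and 2, and at 252 and 308 in YFP-negative mice 1 and 2. Its log2 fold change was -2.17 ± 0.43, and it was alike in both mice (-2.15 and -2.19). Cxcl10, which encodes a CXCR3 ligand that interferon-gamma induces, was counted at 3459 ± 1440 without YFP and at 1217 ± 115 with it (SD, n = 2 each), and fell by 1.44 ± 0.36 in log2 terms.

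Ccr1, which encodes a receptor for CCL5, had a row and fell. It was counted at 3.12 and 3.18 in YFP-positive mice 1 and 2, and 54.9 and 55.8 in YFP-negative mice 1 and 2. The inferred reads were 3 in each YFP-positive library, so the 17.6-fold difference has a wide exact 95% counting interval, from 7.84-fold to 48.9-fold.

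Of 20 interferon-gamma-induced genes, 1 had a row, and it rose. Gbp2 encodes a guanylate-binding protein, and its normalized count was 2657 and 2848 in YFP-positive mice 1 and 2, and 1344 and 1244 in YFP-negative mice 1 and 2. The log2 fold change was 1.09 ± 0.34, opposite in sign to that of Ifng, and to that of Cxcl10, which interferons induce too. Gbp2 and Cst7 did not pass when limma p-values were adjusted over the 14239 genes that the authors' p-values imply (adjusted p = 0.136 and 0.0740).

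**Figure D4:**
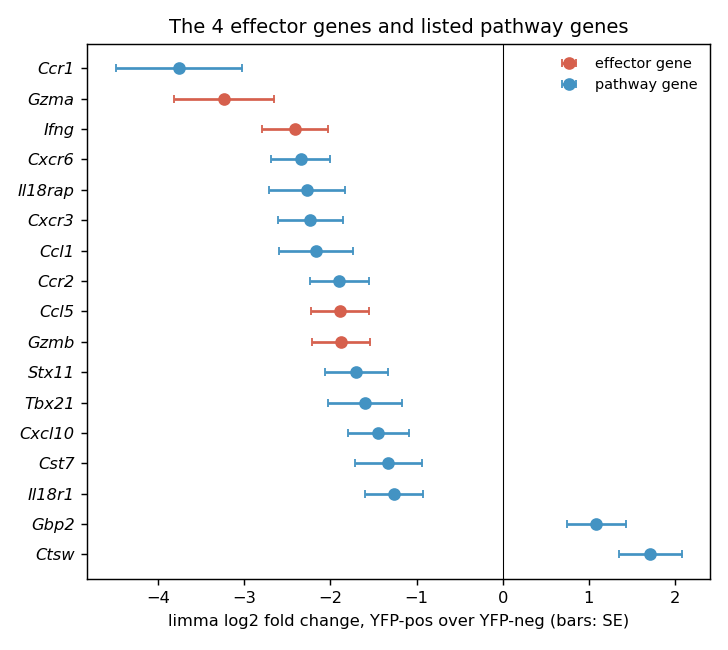
Limma log2 fold change of YFP-positive over YFP-negative Tregs (x axis) for the 4 effector genes (red) and the 13 listed pathway genes (blue), with bars for SE. Ctsw and Gbp2 are on the positive side, and the other 15 genes run from -3.76 for Ccr1 to -1.26 for Il18r1.

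Gzma and Gzmb are also markers of CD8 T cells and natural killer cells, and they were the 2 genes of 9 and of 19 markers on these lists with a row in the table. The genes that define those cells, such as Cd8a and Ncr1, were not analysed here, nor were any of 10 Treg markers or 12 myeloid markers. Of 9 B cell markers, the immunoglobulin kappa constant gene Igkc had a row, and it moved in the same direction as the 4 genes. It was counted at 249 and 280 in YFP-positive mice 1 and 2, and 1503 and 1072 in YFP-negative mice 1 and 2, a log2 fold change of -2.26 ± 0.34. Per the labels' protocols, cells were sorted for RFP, which marks Foxp3 expression, to a typical purity above 95%. The part of other cells in the lower values of the 4 genes was not tested.

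The listed genes with the profile most like each gene were found by distance between log2(normalized count + 1) profiles over the 4 libraries, each centred on its mean, among 218 protein-coding genes with a mean of at least 50. Since every listed gene separates the groups, small distances are common, and the profiles are given as a description. Ifng was closest to Gpm6b, Cdkn2c and Arnt2, at distances of 0.09, 0.10 and 0.14 log2 units. Cdkn2c, a cyclin-dependent kinase inhibitor gene, was counted at 63.4 and 99.7 in YFP-positive mice 1 and 2, and at 385 and 439 in YFP-negative mice 1 and 2. Ccl5 was closest to Prdm1, Cep112 and Cysltr2, at 0.15, 0.17 and 0.19. Prdm1 encodes Blimp-1, a transcription factor of effector lymphocytes, and it was counted at 111 and 198 in YFP-positive mice 1 and 2, and at 512 and 556 in YFP-negative mice 1 and 2. Gzmb was closest to Lsr, S100a11 and Il9r, at 0.19, 0.26 and 0.27. Like Gzmb, these 3 genes were higher in mouse 1 than in mouse 2 among YFP-negative libraries, with Lsr, for example, at 177 and 113. That likeness follows from choosing the genes by their profile over these same libraries. The genes closest to Gzma were farther off, with Ecel1, Anxa1 and Tspan17 at 0.75, 0.75 and 0.97. Among the 4 genes themselves, Ifng and Ccl5 were closest to each other, at 0.52, and Gzma and Gzmb were farthest apart, at 2.22. Without 1 library, Lsr (YFP-negative mouse 1), Cep112 and Tspan17 (YFP-negative mouse 2) did not pass, with limma adjusted p = 0.0579, 0.0678 and 0.0589. The log2 fold changes of Ecel1, Anxa1 and Tspan17 were -1.90, -1.80 and -1.47 without YFP-positive mouse 1 and -3.74, -3.67 and -3.63 without YFP-positive mouse 2.

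The 4 genes lie on 4 chromosomes. Within 500 kb of each, the GENCODE M21 annotation of the same build places 14 protein-coding genes around Gzma, 29 around Gzmb, 12 around Ifng and 25 around Ccl5. Of these neighbours, 1 had a row in the table. It was Ltb4r1, a leukotriene B4 receptor gene 490 kb from Gzmb, named here after its values were seen, with a log2 fold change of -3.47 ± 0.54.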

How the data were processed

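The 4 columns of signal values in the deposited table are gene read counts that the authors divided by a size factor per library, as the even steps of the values show. Per the submitters' processing notes, the tools were DESeq2 1.16.1, featureCounts 1.5.0-p3, HISAT2 2.0.5 and StringTie 1.3.3b, with build mm10. The design text names DEGSeq 1.16.1, an adjusted p of 0.05 and a log2 fold change of 1 as thresholds. The log2 fold change and the raw and adjusted p-value columns of the deposited table are the authors' own. Which annotation, strand setting and rule for multiply matching reads were used is not given in the sources used here. Of the 282 genes, 262 had the same start and end in GENCODE M21 (GRCm38).

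Every value was a whole multiple of 1 step per library (100% within 0.01 reads). The inferred size factors ran from 0.943 to 1.11. Summed over the table, between 196337 and 329350 inferred reads fell in a library, which is not its depth. Values up to 20 reads numbered 12 to 39 per library. Library sizes and the counts of unlisted genes were not at hand for a count model, so the inferred reads are used only to describe precision.

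limma 3.58.1 in R 4.3.3 was fitted to log2(value + 1) of all 282 genes with a variance trend and no mouse block, with Benjamini-Hochberg adjustment over the 282 genes. The variance of each gene was moderated, that is, drawn towards the trend over these selected genes. An SE or p-value is thus not a measure of the gene's own spread alone, and can be smaller or larger than that spread would give. The step was tested on simulated data. The added 1 shrinks the log2 fold changes of low genes, and with 0.1 added instead that of Gzma was -3.32. The limma value of Gzma, -3.23, was still larger in size than the -3.03 of the authors. Fold differences are ratios of normalized counts. Because the genes had been selected between these same libraries, the limma p-values describe the list. Pairing assumes that the mouse number in the titles marks 1 source. Both mouse 1 libraries deviated from their groups in a correlated way over the 282 genes, which are not independent replicates (Pearson's r of 0.395, Spearman's rho of 0.411). Alternatives were a pseudocount of 0.1, a mean of at least 50, no variance trend, the mouse as a block, each library left out, and adjustment over 14239 genes.

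The 4 genes and the gene lists were chosen with earlier results of these data known. The genes named are the 4, every gene of the pathway and marker lists with a row, and the 3 nearest profiles of each of the 4. Ltb4r1, a neighbour of Gzmb, was added after its values were seen.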

Additional observations from a re-analysis of the deposited data

How the results depend on the processing

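Gzma, Gzmb, Ifng and Ccl5 kept their direction and passed an adjusted p of 0.05 by limma under each of the 9 alternatives run. When 1 library was left out, where the spread of the single remaining library is taken from the other population, the log2 fold change ran from -4.33 to -2.13 for Gzma, from -2.15 to -1.60 for Gzmb, from -2.72 to -2.10 for Ifng and from -2.24 to -1.53 for Ccl5, with adjusted p of at most 0.0477, 0.0178, 0.0156 and 0.0178. With the mouse as a replicate block, limma adjusted p was 0.00207 for Gzma, 0.00243 for Gzmb, 0.00197 for Ifng and 0.00207 for Ccl5, and 279 of the 282 listed genes passed. The block changed no call among the 4 genes or the 27 other genes named with values. Adjusted over 14239 genes instead of the 282 selected ones, limma p was larger, at 0.000321 for Gzma, 0.000325 for Gzmb, 4.40e-05 for Ifng and 0.000314 for Ccl5. Of all listed genes, 236 passed with adjustment over 14239 genes and 257 to 269 when 1 library was left out, against 282 with all libraries. Among the 27 other named genes, 232 of the values under alternatives stayed on the same side of the threshold, 10 no longer passed, and 0 reversed. The direction of each listed gene had been fixed by the selection of genes on these libraries, so this stability is not evidence of its own. edgeR was not run, because library sizes and the counts of unlisted genes were not at hand. Low reads limit Gzma and Ccr1 in YFP-positive cells.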
